A study of Mus musculus with 49 samples.

Results

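The levels of 9 cell cycle genes were followed through every sorted mouse B cell population of the series. They are Top2a, Rrm2, Cdk1, Plk1, Aurkb, Aspm, Kifc1, Cdkn3 and Pole2, taken by name wherever a probe set matched one of them alone. A probe set is a group of short oligonucleotides on the array that are read out together. These 9 genes stand among 7417 that have a probe set of their own on the U74Av2 array, and 10 probe sets measured them, since Plk1 had 2. The series asked what happens to immature B cells when the basal signal of their surface immunoglobulin is lost, and it holds 49 arrays in 14 groups, 37 on U74Av2 and 12 on U74A arrays.

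Progenitors of the B lineage divide fast in the bone marrow. Large pre-B cells pass through several divisions after heavy chain rearrangement, and cells leave the cycle before the light chain is rearranged and IgM reaches the surface. In culture, interleukin-7 (IL-7) keeps B cell progenitors dividing, and its withdrawal stops them. Transcripts of S phase genes appear as a cell commits to copying its DNA, largely through E2F factors, and those of mitotic genes follow in G2, when the MuvB core leaves the repressive DREAM complex and binds B-Myb and FoxM1, which switch on promoters with CCAAT boxes and a cell cycle homology region (CHR). A level measured in a sorted population therefore mixes how many cells are cycling with how much transcript each one holds, and these cannot be told apart in bulk RNA.

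Mice were 4 to 8 wk old, and the groups were as follows. FxD were pre-B cells (B220+CD43negIgMneg) and FxE immature B cells (B220+IgM+IgDneg), both sorted fresh from Balb/c marrow, 3 arrays each, and their RNA was amplified in 2 rounds. Cre Mlo and Cre Mhi were immature B cells whose genotype the labels give as B1-8h/3-83(kappa)/Mx-Cre (the study's text has B1-8f, a heavy chain allele with loxP sites), grown from marrow in IL-7, moved to medium without IL-7 but with interferon-(alpha)(beta) for 2 d, and sorted as IgM low and IgM high. Ctrl Mhi cells went through the same culture but came from mice without Mx-Cre, the recombinase driven by the interferon-induced Mx promoter, and were IgM high. Each of these 3 groups had 4 arrays. B6 Mneg were B220+ IgMneg cells of C57BL/6 marrow, sorted from an IL-7 culture that had no interferon, 3 arrays. GFPpos were cells that carried transgenes for an anti-HEL immunoglobulin and for Rag-2-GFP, grown in IL-7, then kept for 1 d without IL-7 but with herbimycin A, an inhibitor of tyrosine kinases, and sorted as IgM+ GFP+. GFPneg were the same cells after 1 d without IL-7 and without the drug, sorted as IgM+ GFPneg, 3 arrays each, so that the drug and the GFP gate cannot be told apart. FxE HA (6 arrays) and FxE Ctrl (4 arrays) were immature B cells sorted from Bcl-2 transgenic mice, whose transgene protects B cells from death, and cultured for 24 or 48 h with herbimycin A or in medium. On U74A arrays, HEL 48h were Rag2-GFP, HEL-Ig marrow cells grown in IL-7 for 5 d. They were then given 1 µg/ml hen egg lysozyme (HEL), the antigen of their transgenic receptor, for 48 h without IL-7 and sorted as GFP+. BM 48h Ctrl had the same IL-7 culture and then 48 h without antigen, and were sorted as GFPneg, so antigen and gate cannot be told apart there. HEL Mhi were IgM high HEL-Ig cells from the IL-7 culture, and HEL Mlo were sorted IgMa low HEL-Ig cells that had 5 d in IL-7, 3 arrays each. The study's text gives 5 d for the IL-7 cultures of the other groups as well. The study describes its arrays as separate sorts, and not whether they came from separate mice, so p-values measure the spread between these arrays. It names 2 or 3 sorts for groups other than the 3 interferon groups, fewer than the arrays of FxE HA and FxE Ctrl, so some of those arrays may share a sort and their p-values would then be too small.

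Array medians ran from 345.9 to 544.0 units on U74Av2 and from 512.3 to 596.5 units on 9 of the U74A arrays. HEL Mlo arrays had medians of 21.58 to 26.22, a different scale, and are given by rank within the array only. Summed signals of 4 measured B cell markers (Cd79a, Pax5, Ebf1 and Blk) were 40370 to 142200 units on every U74Av2 array. Markers of other lineages were high in the freshly sorted cells, where the sum of 5 erythroid genes was 60740 to 122600 in FxD and 117100 to 161800 in FxE, and that of 9 myeloid genes was 36230 to 76910 in FxD and 66520 to 275400 in FxE. In Cre Mlo, Cre Mhi and Ctrl Mhi those sums stayed at 1949 to 3253, 2229 to 2904 and 1933 to 2795 for erythroid genes.

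Promoter sequences of 8 of the 9 genes are held in the RefSeq table (GRCm38.p6, 250 bases before to 50 after the start of transcription). Of these 4 are shown because they span what these promoters share and where one departs from the rest. Capitals mark matches, on either strand, to the CCAAT box (CCAAT), the CHR (TTTGAA or TTCGAA) and the E2F site (TTTGGCGC, TTTCCCGC or TTTCGCGC).
Top2a: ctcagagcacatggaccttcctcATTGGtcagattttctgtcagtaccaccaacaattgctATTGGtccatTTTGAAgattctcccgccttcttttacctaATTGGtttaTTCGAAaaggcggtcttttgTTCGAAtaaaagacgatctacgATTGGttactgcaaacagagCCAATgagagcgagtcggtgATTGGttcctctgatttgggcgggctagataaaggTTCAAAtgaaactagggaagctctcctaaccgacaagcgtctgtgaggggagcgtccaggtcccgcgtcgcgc
Cdk1: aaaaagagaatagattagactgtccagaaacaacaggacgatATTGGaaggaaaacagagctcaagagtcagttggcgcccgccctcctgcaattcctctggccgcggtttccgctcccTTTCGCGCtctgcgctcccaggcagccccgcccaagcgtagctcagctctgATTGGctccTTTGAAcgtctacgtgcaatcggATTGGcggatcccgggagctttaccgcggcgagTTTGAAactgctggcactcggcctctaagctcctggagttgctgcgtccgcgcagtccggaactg
Rrm2: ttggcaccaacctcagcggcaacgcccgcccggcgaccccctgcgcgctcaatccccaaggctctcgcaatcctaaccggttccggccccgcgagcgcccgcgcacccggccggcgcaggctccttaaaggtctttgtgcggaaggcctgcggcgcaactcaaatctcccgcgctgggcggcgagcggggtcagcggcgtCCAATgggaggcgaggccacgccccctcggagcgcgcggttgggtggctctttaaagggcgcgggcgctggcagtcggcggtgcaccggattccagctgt
Pole2: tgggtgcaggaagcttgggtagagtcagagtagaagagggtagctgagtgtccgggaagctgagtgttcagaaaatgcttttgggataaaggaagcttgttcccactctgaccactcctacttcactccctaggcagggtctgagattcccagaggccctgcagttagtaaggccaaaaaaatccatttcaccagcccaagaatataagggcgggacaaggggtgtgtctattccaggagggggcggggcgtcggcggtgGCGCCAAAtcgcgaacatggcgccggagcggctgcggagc
The windows are chr11:99024140-99024439 (minus strand), chr10:69352863-69353162 (minus), chr12:24708004-24708303 (plus) and chr12:69228141-69228440 (minus). A CCAAT box was found in 7 of 8 promoters, with 6 in Top2a and 3 in Cdk1, against 37.4% of the 32851 promoters in the table. The CHR was found in 6 of 8, against 19.2%, and was missing from the windows of Rrm2 and Pole2. An E2F site was found in Cdk1 and Pole2, against 1.84%, and Pole2 had neither of the other motifs. A match is a stretch of letters and not a bound site.

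Across the 10 U74Av2 groups, FxD, B6 Mneg and GFPneg held the top 3 places for 8 of the 9 genes, Aspm being the exception. By mean signal B6 Mneg ranked 2 or 3, GFPneg 1 to 3 and FxD 1 to 5. Cre Mhi held ranks 3 to 8 and Ctrl Mhi 4 to 7, FxE 5 to 9, GFPpos 6 to 9, and Cre Mlo and FxE HA 6 to 10, while FxE Ctrl held 4 to 10. Neighbours in these orders mostly could not be separated, since the ranges of 71 of 81 neighbouring group pairs overlapped.

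**Figure D1:**
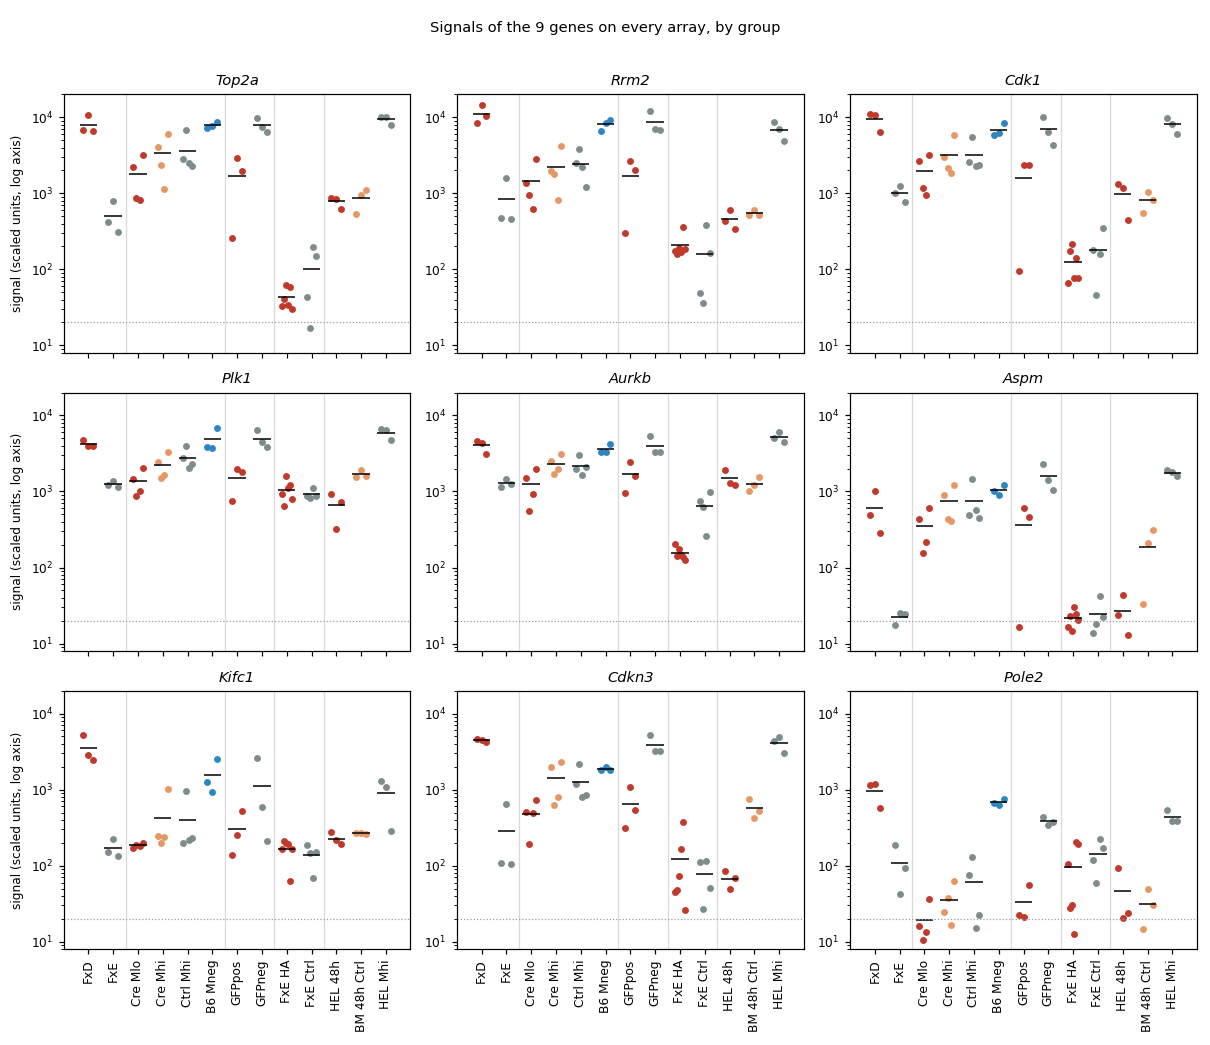
Signal in scaled units (log axis) of each of the 9 genes on every array, by group, with 1 dot per array and a bar at the group mean. The dotted line is the floor of 20 units. FxD, B6 Mneg, GFPneg and HEL Mhi arrays lie at the top for most genes, and FxE HA and FxE Ctrl arrays at the bottom for most.

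The width of the movement differed between the genes. From the highest to the lowest of the 10 group means on the log2 scale, Top2a, the topoisomerase that untangles replicated DNA and condenses chromosomes, moved by 7.58, and Rrm2, the subunit of ribonucleotide reductase that limits the supply of deoxynucleotides in S phase, by 6.73. Cdk1, the kinase that drives entry into mitosis, moved by 6.34, Cdkn3, a phosphatase of cyclin-dependent kinases, by 6.09, and Aspm, a spindle pole protein, by 6.06. Pole2, the second subunit of the leading strand DNA polymerase epsilon, moved by 5.31. The last 2 widths are set in part by the floor of 20 units, since the lowest group of Aspm (FxE HA) lay at 14.7 to 30.1 units and that of Pole2 (Cre Mlo) at 10.4 to 35.9. The 2 mitotic kinases Aurkb, of the chromosomal passenger complex, and Plk1, which acts at centrosomes, kinetochores and in cytokinesis, moved by 4.70 and 2.39. The narrow width of Plk1 is that of its brighter probe set, with means of 4933 units in GFPneg and 926.6 in FxE Ctrl. Its other probe set had means of 3299 in GFPneg and 87.75 in FxE Ctrl. Kifc1, a motor that focuses spindle poles, moved by 4.69.

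Over the 10 group means the genes followed each other closely with one exception. The 36 pairwise correlations (Pearson's r) had a median of 0.886 and ran up to 0.987 for Top2a and Cdk1. The lowest was 0.297, for Aspm and Pole2. Against the mean of the 9 genes, Pole2 had an r of 0.629, while the other 8 lay between 0.891 and 0.982. Pole2 was low in Ctrl Mhi, Cre Mhi and Cre Mlo, where its group means were the 7th, 8th and 10th of 10. These values describe 10 group means that share their arrays and are no test. Among 7408 other genes, Ect2 (a RhoA activator of cytokinesis) was most like the mean of the 9, with an r of 0.993. Ccna2 (cyclin A2) and Ttk (a spindle checkpoint kinase) followed at 0.989 each, Kif4 at 0.988, Pclaf and Cks2 at 0.983 each, Ccnb2 (cyclin B2) at 0.982 and Aurka at 0.981.

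FxD against FxE compares neighbouring stages of normal marrow. All 9 genes were higher in FxD, with log2 differences of 1.64 to 4.52, no overlap between the arrays of the groups, and an adjusted p under 0.05 for each (limma). Among all 9977 probe sets 1.74% were called higher and 10.6% were higher without overlap. Top2a signals were 6786, 10730 and 6577 in FxD and 420.5, 787.5 and 308.7 in FxE. Every FxD array was thus several times above every FxE array, and the fitted fold was 16.7 (log2 4.06 ± 0.42 SE, adjusted p = 0.0154). Rrm2 had 8391, 14560 and 10510 in FxD and 469.1, 1575 and 453.7 in FxE, a log2 difference of 3.97 ± 0.55 (adjusted p = 0.0234). Pole2 had 1138, 1203 and 569.2 in FxD against 186.7, 42.4 and 92.2 in FxE (3.35 ± 0.61, adjusted p = 0.0470). S phase genes and mitotic genes were alike in this respect.

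Cdkn3, Aspm and Kifc1 each differed by more than 4 log2 units. Aspm gave 492.3, 1023 and 284.8 in FxD and 17.6, 24.9 and 24.3 in FxE, at or near the floor of 20 units (4.51 ± 0.48, adjusted p = 0.0160), and with a floor of 100 its difference was 2.39 and no longer called (adjusted p = 0.107). Cdkn3 gave 4606, 4443 and 4283 in FxD and 107.9, 638.3 and 105.3 in FxE (4.52 ± 0.72, adjusted p = 0.0322). Kifc1 gave 5215, 2865 and 2489 in FxD and 150.1, 223.1 and 132.4 in FxE (4.34 ± 0.38, adjusted p = 0.0107). FxE replicate 2 was the highest of the FxE arrays for 8 of these 9 genes. The kinases also separated, Cdk1 by 3.21 (6378 to 11000 units in FxD, 762.1 to 1266 in FxE), Plk1 by 1.75 (3919 to 4769 against 1136 to 1382) and Aurkb by 1.64 (3103 to 4618 against 1149 to 1447).

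The calls leaned on all 6 arrays. Without FxD replicates 1, 2 and 3 in turn, 1, 0 and 4 of the 9 genes were called, and without FxE replicates 1, 2 and 3, 0, 5 and 0 were. The other probe set of Plk1 was higher in FxD too, by 2.93. The B cell markers summed to 43300 to 54010 units in FxD and 66980 to 69120 in FxE, beside the erythroid and myeloid sums given above. By log2 mean, 3 erythroid genes were higher in FxD and 2 lower, and all 9 myeloid genes were lower. The part of these other transcripts in the difference was not tested. Of 46 measured genes of a wider mitosis and G2 list 30 were higher in FxD and 0 lower, with a median of 2.31 against 0.04 over all probe sets; Ncaph, a condensin subunit, was higher by 3.00 and Kif4 by 3.04. Of 34 genes of S phase and DNA replication 15 were higher and 0 lower, among them Cdc6, which loads the replicative helicase (3.18), and Prim1, a primase subunit (3.89). The MCM genes, which make the helicase and its helpers, were higher in 6 of 7. Ccnd2 (cyclin D2) went the other way, at 42.7 units in FxD and 379.8 in FxE (log2 -3.27 ± 0.39, adjusted p = 0.0184).

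Cre Mlo against Ctrl Mhi sets cells that lost surface IgM beside IgM high cells from like cultures. The Mx-Cre transgene and the sort gate differ between these groups as well, and this comparison does not separate them from the loss. None of the 9 genes was called by limma (0 of 9), while 8.33% of all probe sets were called in either direction. At an unadjusted p under 0.05 were 3 of the 9, beside 2086 of all 9977 probe sets, and the methods' t-test called 0. Each of the 9 had a lower mean in Cre Mlo, with log2 differences of -1.41 to -0.75. Cdkn3 was the 1 of 9 genes that did not overlap between these groups, where 8.21% of all probe sets were lower without overlap, at 513.2, 195.0, 488.1 and 723.4 in Cre Mlo and 1171, 2185, 802.4 and 851.5 in Ctrl Mhi. Its difference of -1.41 ± 0.53 had an adjusted p of 0.147. Plk1 came closest to the threshold, with 1482, 871.7, 1028 and 2060 in Cre Mlo and 2767, 3943, 2016 and 2267 in Ctrl Mhi (-1.05 ± 0.34, adjusted p = 0.0905). Cre Mlo replicate 4 lay within the range of the Ctrl Mhi arrays, as it did for every gene but Cdkn3. Summed B cell markers were 101300 to 110000 in Cre Mlo and 121400 to 142200 in Ctrl Mhi, and 2 NK markers 218.9 to 268.6 in Cre Mlo and 100.4 to 142.4 in Ctrl Mhi. By log2 mean, 2 B cell genes were higher in Cre Mlo and 2 lower, and both NK genes were higher. The part of these markers was not tested.

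The arrays within each group varied widely. Taking each gene's log2 signal less its mean over the 12 arrays, the median over the 9 genes was -0.35, -1.15, -0.92 and 0.19 on the 4 Cre Mlo arrays, 0.35, -0.19, -0.31 and 1.26 on the Cre Mhi arrays, and 0.24, 1.36, -0.08 and -0.06 on the Ctrl Mhi arrays. All 9 genes were above their means on Ctrl Mhi replicate 2 and on Cre Mhi replicate 4, and all 9 below on Cre Mlo replicates 2 and 3. Top2a shows the same spread, with 2208, 880.6, 805.1 and 3214 in Cre Mlo, against 2828, 6886, 2518 and 2300 in Ctrl Mhi. Without Ctrl Mhi replicate 2 its difference of -1.12 became -0.76 and that of Kifc1, -0.75 with all arrays, became -0.21.

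**Figure D2:**
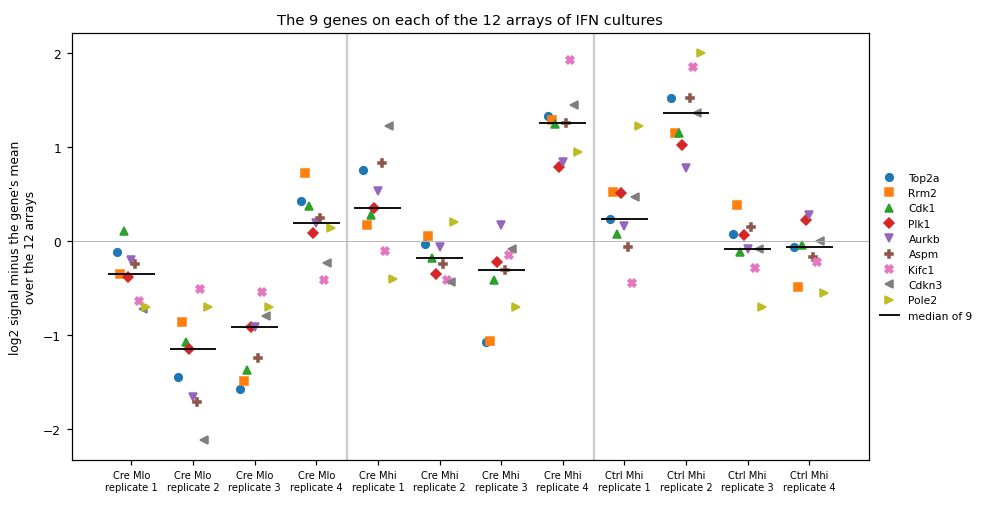
Log2 signal of each of the 9 genes less that gene's mean over the 12 arrays of interferon cultures, 1 column per array, with a bar at the median of the 9. The genes move together within an array, and Cre Mhi replicate 4 and Ctrl Mhi replicate 2 lie highest, with medians of 1.26 and 1.36.

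Pole2 was near the floor in all 3 groups. It had 16.2, 10.4, 13.6 and 35.9 in Cre Mlo, 24.7, 37.6, 16.5 and 63.1 in Cre Mhi, and 76.4, 130.9, 15.1 and 22.3 in Ctrl Mhi. Of the 4 Cre Mlo values 3 were raised to 20 before the fit, so the fitted differences for this gene depend on the floor.

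Against the Cre Mhi cells, the sort of the same genotype that still carried IgM, Cre Mlo means were again lower for all 9 genes, by -1.51 to -0.51 on the log2 scale. By the study's PCR, part of the Cre Mhi cells had already lost the heavy chain allele with loxP sites. Comparisons with Cre Mhi thus involve a partly deleted population. None of the 9 genes was called by limma (0 of 9), and 6.08% of all probe sets were. At an unadjusted p under 0.05 were 2 of the 9, beside 1732 of all 9977 probe sets, and the methods' t-test called 0. Aurkb had 1524, 552.2, 927.7 and 1995 in Cre Mlo and 2535, 1678, 1967 and 3131 in Cre Mhi (-1.02 ± 0.38, adjusted p = 0.174). Of the 4 Cre Mlo arrays 3 lay below all Cre Mhi arrays. Set beside the Cre Mhi array of the same number, each of the 4 Cre Mlo arrays was lower for all 9 genes. With that number as a block, which the labels do not tie to a shared culture, Aspm was called (-1.12, adjusted p = 0.0442) and Plk1 had an adjusted p of 0.0586. Plasma cell markers summed to 784.7 to 1484 in Cre Mlo and 375.1 to 747.9 in Cre Mhi, and their part was not tested. Cre Mhi and Ctrl Mhi were within -0.48 to 0.10 of each other for every gene, with 0 of 9 called or at an unadjusted p under 0.05 by limma, 0 by the methods' t-test, and 0.02% of probe sets called. Among all 9977 probe sets 711 had an unadjusted p under 0.05. The standard errors of the 9 differences were 0.34 to 0.61.

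Of the wider lists, 1 of 46 mitosis and G2 genes and 8 of 34 S phase genes were called in Cre Mlo against Ctrl Mhi in either direction, beside the 8.33% of all probe sets. In the mitosis and G2 list 43 of 46 had a lower mean, with a median of -0.68 against -0.04 over all probe sets, and the 1 called was Wee1, the kinase that holds Cdk1 inactive (-1.04 ± 0.27, adjusted p = 0.0389). In the S phase list, with a median of -0.37, 7 were lower, among them Cdt1, the licensing factor (-1.23), and Rfc1, the large subunit of the clamp loader (-1.03), and 1 was higher, Dck (deoxycytidine kinase, 0.91). Ccnd2 was lower by -1.84 (409.4 units in Cre Mlo, 1443 in Ctrl Mhi, adjusted p = 0.000294). Among inhibitors, Cdkn1b (p27) was higher by 1.87 (adjusted p = 0.0332) and Gadd45a by 1.09 (adjusted p = 0.00569), while Cdkn2d (p19) was lower by -0.72 and Tob1 by -0.83.

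The stage comparison and the receptor deletion were also set against each other. The FxD against FxE difference exceeded that of Cre Mlo against Ctrl Mhi for all 9 genes when the difference of the differences was itself tested (9 of 9 called above 0 by limma, against 2.39% of probe sets). The gaps ran from 2.56 for Aurkb (adjusted p = 0.0195) to 5.93 for Cdkn3 (adjusted p = 0.00285) on the log2 scale, and 7 to 9 genes were called when any 1 array was left out. The 2 comparisons differ in amplification of RNA, in culture and in interferon, which cannot be told apart from stage here.

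B6 Mneg cells, still in IL-7, had higher means than Ctrl Mhi for all 9 genes, by 0.66 to 3.90 on the log2 scale. The strain, the transgenic receptor, interferon and IL-7 all differ between these groups, and the Ctrl Mhi arrays are those used against Cre Mlo. Of the 9, 2 were called higher by limma, against 6.91% of all probe sets. Pole2 had 676.6, 629.8 and 758.5 in B6 Mneg and 76.4, 130.9, 15.1 and 22.3 in Ctrl Mhi (3.90 ± 0.69, adjusted p = 0.0133). Rrm2 had 6517, 8358 and 9338 in B6 Mneg and 2485, 3833, 2246 and 1225 in Ctrl Mhi (1.82 ± 0.38, adjusted p = 0.0231). Top2a, Cdk1 and Aurkb did not overlap either, which makes 5 of 9 genes against 13.6% of all probe sets higher without overlap, with differences of 1.27, 1.19 and 0.75 and adjusted p of 0.0788, 0.0684 and 0.0805.

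Ctrl Mhi replicate 2 decided most of these calls. Without it 8 of the 9 genes were called, Plk1 being the exception at 0.99 (adjusted p = 0.0912), and the difference of Aspm was 1.05 in place of 0.66. Without B6 Mneg replicates 1, 2 and 3 the count was 1, 0 and 0, and without Ctrl Mhi replicate 3 it was 1. The sum of 4 T cell markers was 1449 to 2522 in B6 Mneg and 305.4 to 485.4 in Ctrl Mhi, and that of 5 erythroid markers 6724 to 9393 in B6 Mneg and 1933 to 2795 in Ctrl Mhi. By log2 mean, 1 T cell gene was higher in B6 Mneg and 3 were lower (median difference -0.35), while all 5 erythroid genes were higher. B cell markers summed to 88040 to 115000 in B6 Mneg and 121400 to 142200 in Ctrl Mhi. Their part in the result was not tested. Of the wider lists, 23 of 34 S phase genes were higher and 0 lower, and 9 of 46 mitosis and G2 genes were higher and 1 lower. Uhrf1 (2.58) and Hells (2.47), which maintain methylation at replicated DNA, were among those higher, and Pttg1 (securin) was the lower one (-1.33).

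Cre Mlo and B6 Mneg are populations that both lack high surface IgM. Cre Mlo cells had 2 d without IL-7 and with interferon, while B6 Mneg cells were still in IL-7, without interferon and of another strain. The transgenes differ too, and these differences cannot be told apart here. All 9 genes were lower in Cre Mlo with no overlap, where 14.5% of all probe sets were. Of these 8 were called by limma, against 8.46% of all probe sets called lower. Kifc1 had 171.7, 187.4, 183.5 and 201.1 in Cre Mlo and 1259, 922.7 and 2557 in B6 Mneg (-2.95 ± 0.34, adjusted p = 0.00257). Cdk1 had 2643, 1168, 946.8 and 3178 in Cre Mlo and 5789, 6178 and 8452 in B6 Mneg (-1.94 ± 0.47, adjusted p = 0.0361). Pole2 fell to 10.4 to 35.9 in Cre Mlo, against 629.8 to 758.5 in B6 Mneg, and with 3 Cre Mlo arrays below 20 units the fitted -4.89 is set in part by the floor. Aspm missed the threshold at -1.76 ± 0.48 (155.0 to 603.8 in Cre Mlo, 907.5 to 1210 in B6 Mneg, adjusted p = 0.0532). The count fell to 4, 3 and 2 without B6 Mneg replicates 1, 2 and 3, and to 5 without Cre Mlo replicate 2. T cell markers summed to 209.9 to 415.9 in Cre Mlo and 1449 to 2522 in B6 Mneg, and erythroid markers to 1949 to 3253 in Cre Mlo and 6724 to 9393 in B6 Mneg. By log2 mean, 2 T cell genes were higher in Cre Mlo and 2 lower, and 1 erythroid gene was higher and 4 lower. The part of these markers was not tested. In the wider lists 32 of 46 mitosis and G2 genes, 30 of 34 S phase genes and 6 of 7 MCM genes were lower and 0 higher. Pold2, a subunit of the lagging strand polymerase delta, was lower by -3.09 and Mcm5 by -3.31.

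**Figure D3:**
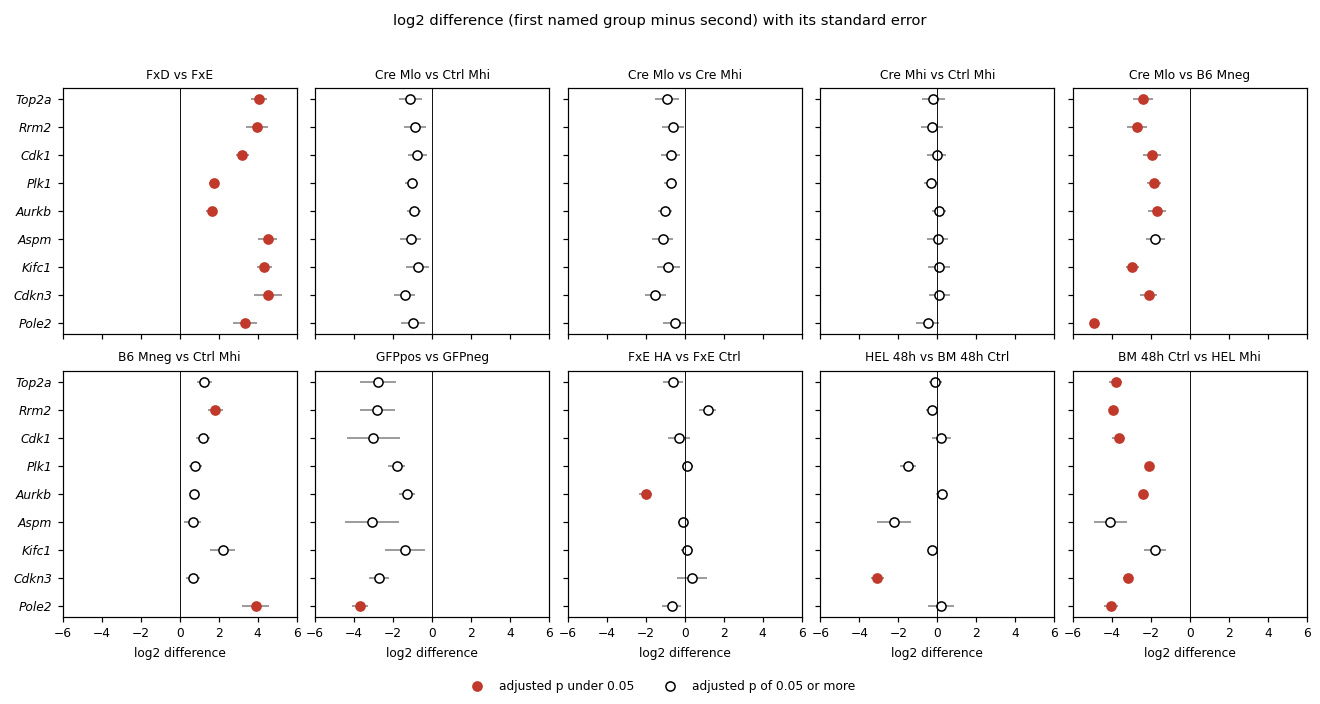
Log2 difference (first named group minus second) with its standard error for each of the 9 genes in 10 comparisons. Filled points have an adjusted p under 0.05 in limma; all 9 are filled for FxD vs FxE, 8 for Cre Mlo vs B6 Mneg, 7 for BM 48h Ctrl vs HEL Mhi and 2, 1 or 0 elsewhere.

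In the HEL-Ig/Rag2-GFP cultures, 1 of 9 genes, Pole2, was called lower by limma in the GFPpos cells kept with herbimycin A, against 1.21% of all probe sets called lower. At an unadjusted p under 0.05 were 6 of the 9 genes, beside 2083 of all 9977 probe sets. For 8 of 9 genes every GFPpos array lay below every GFPneg array, as for 15.1% of all probe sets, and the median difference of the 9 was -2.77 on the log2 scale. Pole2 had 22.4, 21 and 55.6 in GFPpos and 438.8, 339.2 and 379.4 in GFPneg (-3.69 ± 0.41, adjusted p = 0.0286), a difference set in part by the floor and -1.94 with a floor of 100. Top2a had 255.9, 2876 and 1955 in GFPpos and 9818, 7407 and 6323 in GFPneg (-2.77 ± 0.94, adjusted p = 0.183). Cdkn3 had 312.0, 1083 and 545.5 in GFPpos and 5205, 3260 and 3183 in GFPneg (-2.73 ± 0.50, adjusted p = 0.0581). Kifc1 overlapped, at 137.0, 249.3 and 519.0 in GFPpos and 2597, 592.7 and 210.2 in GFPneg.

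GFPpos replicate 1 stood far below the other 2 arrays of its group for most of the genes. Cdk1 was 94.0 units there and 2392 and 2337 on the others, with 9953, 6447 and 4336 in GFPneg. Aspm was 16.4 there and 610.8 and 460.9 on the others, with 2326, 1413 and 1053 in GFPneg. Without that array all 9 differences kept their sign at -3.49 to -0.93, Cdk1 at -1.47 in place of -3.02, and 0 were called (Pole2 adjusted p = 0.0654). Pole2 likewise lost its call without GFPpos replicate 2 or any single GFPneg array. With the spread taken from all 37 U74Av2 arrays, 8 of 9 genes were called lower, Kifc1 excepted. Summed T cell markers were 368.5 to 527.7 in GFPpos and 863.6 to 999.8 in GFPneg, plasma cell markers 691.4 to 1840 in GFPpos and 321.5 to 572.6 in GFPneg, and stromal markers 724.2 to 928.1 in GFPpos and 963.1 to 1095 in GFPneg. By log2 mean, 2 T cell genes were higher in GFPpos and 2 lower. For plasma cell genes it was 2 and 1, and for stromal genes 1 and 3. The part of these markers was not tested. B cell markers were 97630 to 103300 in GFPpos and 96790 to 105300 in GFPneg. All 46 mitosis and G2 genes had lower means in GFPpos (median -2.001), of which 2 were called, Ncaph (-2.59) and Incenp (-1.68), a partner of Aurkb. Of 34 S phase genes 9 were lower and 0 higher, Prim1 by -2.94. The transcription factors E2f1 (-2.52) and Foxm1 (-1.94) were lower.

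The GFPpos effect was not shown to differ from that of Cre Mlo against Ctrl Mhi. All 9 differences of the differences were below 0, at -2.70 for Pole2 to -0.38 for Aurkb, with adjusted p of 0.218 to 0.866, and 0.381% of probe sets were called. Their standard errors of 0.55 to 1.41 are wide.

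In cultures of polyclonal FxE cells with and without the same drug, Aurkb was the 1 gene called. It had a lowest, median and highest signal of 124.6, 144.6 and 204.4 in the 6 FxE HA arrays, and 738.3, 620.7, 262.6 and 987.8 in FxE Ctrl (-2.01 ± 0.34, adjusted p = 0.0115), with no overlap, where 3.53% of all probe sets were lower without overlap. This was 1 of 9 genes called lower by limma, against 2.19% of all probe sets, and the call was lost without FxE Ctrl replicate 1. Rrm2 was the only other gene at an unadjusted p under 0.05 and ran the other way, at 156.9 to 364.6 in FxE HA against 36.2 to 388.1 in FxE Ctrl (1.19 ± 0.43, adjusted p = 0.212). In the 24 h arrays alone Rrm2 was called higher (2.05, adjusted p = 0.0291) along with Aurkb lower (-2.04, adjusted p = 0.0359), and in the 48 h arrays none was.

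Most of the other genes were low in both groups. Top2a was 30.4 to 62.4 units in FxE HA and 16.7 to 195.8 in FxE Ctrl, Aspm was 14.7 to 30.1 in FxE HA and 13.9 to 42.6 in FxE Ctrl, and Cdkn3 was 26.1 to 380.9 in FxE HA and 27.3 to 115.3 in FxE Ctrl. Plk1 kept 637.0 to 1595 units in FxE HA and 832.5 to 1108 in FxE Ctrl (0.14 ± 0.27) by its brighter probe set. The other Plk1 probe set was low, at 54.3 to 220.9 in FxE HA and 42.3 to 171.4 in FxE Ctrl. Of 46 mitosis and G2 genes 0 were called by limma (11 at an unadjusted p under 0.05, beside 1549 of all 9977 probe sets). Whether the drug acted differently here than in the GFP cultures was tested gene by gene, and 0 of 9 differences passed, with 0.692% of probe sets called. Rrm2 came closest at 3.996 ± 0.92 (adjusted p = 0.0649), and Aurkb was the one gene below 0, at -0.70. Genes such as Top2a, Aspm and Cdkn3 were already low in FxE Ctrl, which left little room for a fall. The differences therefore also depend on the starting level and the floor, and cannot settle whether the drug acted alike. Summed myeloid markers were 28560 to 135900 in FxE HA and 29620 to 128000 in FxE Ctrl, and erythroid markers 13970 to 42600 in FxE HA and 6231 to 15370 in FxE Ctrl. In the fit, 1 erythroid gene was higher in FxE HA and 4 were lower (median difference -0.095). For myeloid genes it was 1 and 8. The part of these markers was not tested. Hours of culture were taken from the study's legend by array number.

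After 48 h with antigen Cdkn3 was the 1 gene called. It had 84.0, 48.9 and 68.6 in HEL 48h and 758.2, 425.8 and 518.3 in BM 48h Ctrl (-3.07 ± 0.32, adjusted p = 0.0383). It was 1 of the 11 probe sets called lower among 12588, or 0.0874%, and it lost the call when any 1 of the 6 arrays was left out. Plk1 did not overlap either, beside 12% of all probe sets lower without overlap, with 916.6, 317.3 and 734.8 in HEL 48h and 1569, 1897 and 1597 in BM 48h Ctrl (-1.49 ± 0.42, adjusted p = 0.276), while the other Plk1 probe set overlapped (-0.99 ± 0.73). Aspm had 23.8, 44.1 and 12.8 in HEL 48h and 33.1, 208.9 and 312.5 in BM 48h Ctrl (-2.23 ± 0.87, adjusted p = 0.415). Of the S phase genes, Rrm2 differed by -0.29 ± 0.28 and Pole2 by 0.21 ± 0.67. Cdk1, Aurkb and Top2a were at 0.20, 0.24 and -0.09. Of 49 mitosis and G2 genes measured on this array 0 were called by limma. At an unadjusted p under 0.05 were 9, beside 1455 of all 12588 probe sets. Summed B cell markers were 72540 to 123500 in HEL 48h and 148200 to 164300 in BM 48h Ctrl, and plasma cell markers 716.3 to 1664 in HEL 48h and 619.5 to 751.1 in BM 48h Ctrl. By log2 mean, 2 B cell genes were higher in HEL 48h and 3 lower, and 2 plasma cell genes were higher and 1 lower. The part of these markers was not tested.

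The other comparison on U74A arrays sets cells 48 h out of the IL-7 culture beside other cells taken from such a culture. BM 48h Ctrl cells, 48 h after IL-7, had lower signals than HEL Mhi cells for all 9 genes with no overlap, by -4.07 to -1.79, where 13.3% of all probe sets were lower without overlap. Of these 7 were called by limma, against 2.68% of probe sets called lower. Rrm2 had 520.6, 603.9 and 512.0 in BM 48h Ctrl and 8602, 7078 and 4862 in HEL Mhi (-3.92 ± 0.24, adjusted p = 0.00362). Cdk1 had 547.1, 1040 and 829.5 in BM 48h Ctrl and 9923, 8215 and 6052 in HEL Mhi (-3.65 ± 0.33, adjusted p = 0.00689). Top2a (538.4, 951.3 and 1113 in BM 48h Ctrl, 10180, 10070 and 7877 in HEL Mhi) was lower by -3.80.

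Pole2 (14.55, 49.58 and 30.73 in BM 48h Ctrl, 539.0, 383.8 and 387.4 in HEL Mhi) differed by -4.03 and was called, and by -2.27 with a floor of 100. Cdkn3 differed by -3.17, Aurkb by -2.38 and Plk1 by -2.12, all called. Aspm (33.1, 208.9 and 312.5 in BM 48h Ctrl, 1894, 1804 and 1579 in HEL Mhi) and Kifc1 (272.5, 267.5 and 258.6 in BM 48h Ctrl, 1305, 1088 and 289.5 in HEL Mhi) had adjusted p of 0.0654 and 0.152. Either 7 or 8 genes were called whichever array was left out. The scaling target of the BM 48h Ctrl arrays is not given in the sources used here, so arrays were brought to a common median first. The sort gate and the Rag2-GFP transgene differ between these groups as well. Values cover 12588 probe sets for BM 48h Ctrl and 9977 for HEL Mhi, so the processing differed too. Scan day and chip lot were at hand for BM 48h Ctrl and not for HEL Mhi. Processing and batch cannot be told apart from the 48 h here. Over probe sets that both hold, B cell markers summed to 148000 to 164100 in BM 48h Ctrl and 82440 to 104400 in HEL Mhi, T cell markers to 567.2 to 749.8 in BM 48h Ctrl and 2263 to 3442 in HEL Mhi, and stromal markers to 2071 to 2796 in BM 48h Ctrl and 585.7 to 1261 in HEL Mhi. Of 9 myeloid genes 6 had an unadjusted p under 0.05 (list median -1.31), beside 2220 of all 9977 probe sets. The part of these markers was not tested. In the wider lists 38 of 46 mitosis and G2 genes were lower and 0 higher, among them Cdc20, an activator of the anaphase-promoting complex (-2.74), and Smc2, a condensin core subunit (-3.47), as were 16 of 34 S phase genes, Pcna by -2.40.

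**Figure D4:**
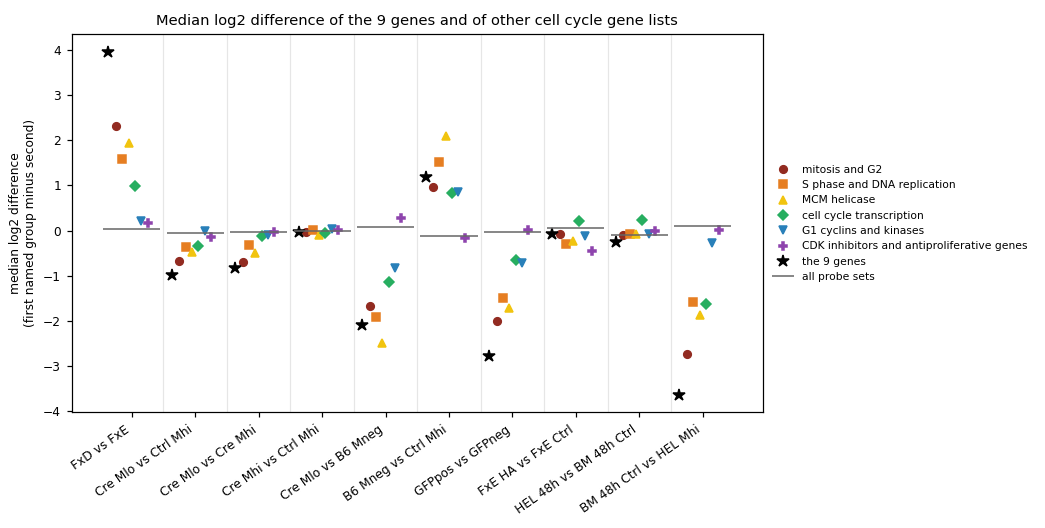
Median log2 difference (first named group minus second) of the 9 genes (stars) and of 6 other cell cycle lists in 10 comparisons, with a grey bar at the median of all probe sets. The 9 genes lie beyond the wider mitosis and S phase lists in FxD vs FxE and BM 48h Ctrl vs HEL Mhi, and the inhibitors lie at 0.16 and 0.02 there. Since the 9 genes were chosen with earlier results of these data known, their place beyond those lists is no test.

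Ranks within each array, over the 9977 probe sets held for both array types, set the 2 types and the HEL Mlo arrays side by side. The median percentile of the 9 genes was 88.0 to 90.2 on FxD arrays and 47.2 to 62.1 on FxE arrays. It was 51.9 to 77.4 for Cre Mlo, 58.6 to 84.7 for Cre Mhi and 67.8 to 84.2 for Ctrl Mhi, and 85.1 to 88.5 for B6 Mneg. GFPpos arrays spanned 39.7 to 76.1 and GFPneg arrays 85.2 to 91.4. FxE HA and FxE Ctrl arrays were the lowest of all, at 23.8 to 32.3 and 17.3 to 32.3. On U74A arrays the range was 38.5 to 43.3 for HEL 48h, 45.4 to 49.1 for BM 48h Ctrl and 89.5 to 92.7 for HEL Mhi. HEL Mlo arrays had 86.7 to 88.7, next to the range of HEL Mhi and above those of both 48 h groups. The HEL Mlo arrays were of other chip lots and scan days than both 48 h groups, which cannot be told apart from the cells here.

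**Figure D5:**
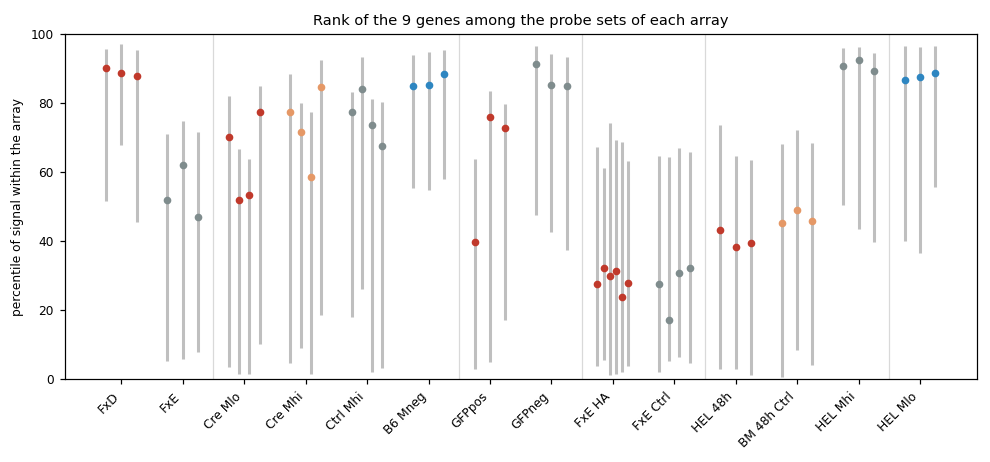
Percentile of the 9 genes on each array, among the 9977 probe sets held for both array types. A dot marks the median of the 9 and a line runs from the lowest to the highest. HEL Mhi and HEL Mlo dots lie between 86.7 and 92.7, and HEL 48h and BM 48h Ctrl dots between 38.5 and 49.1.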

How the data were processed

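Total RNA of sorted mouse bone marrow B lineage cells was hybridized to Affymetrix U74Av2 or U74A arrays. The deposited values are hybridization intensities, 1 per probe set, on a linear scale. The authors computed them with Microarray Suite (MAS 5 in the submitters' processing notes), corrected U74Av2 arrays with a U74A mask and scaled arrays to 1500 units. For HEL 48h, BM 48h Ctrl and HEL Mlo the labels give no target, nor a program for HEL Mlo, whose values lie on a much lower scale. The number of arrays limits the precision.

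After 66 control probe sets were left out there were 12588 on U74A and 9977 on U74Av2, of which 10276 and 8724 match 1 gene. Signals under 20 were raised to 20, and limma 3.58.1 (lmFit and eBayes, R 4.3.3) was run on their log2 values. P-values are two-sided with a Benjamini-Hochberg adjustment across the whole array, and a call means an adjusted p under 0.05. Cre Mlo, Cre Mhi and Ctrl Mhi shared a fit, FxE HA with FxE Ctrl had hours of culture as a factor, and every other comparison had its own arrays. Differences of differences were limma contrasts. BM 48h Ctrl and HEL Mhi arrays were first brought to a common median over 9977 probe sets. The procedure was tested on simulated data.

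The 9 genes and the gene lists were chosen with earlier results of these data known. Named genes are the 9, by the probe set of highest mean log2 signal, up to 4 per list and comparison with the smallest adjusted p, and the 8 genes most like the 9 over the U74Av2 groups. Alternatives were a floor of 100, quantile normalization, a mean signal of at least 200, the methods' t-test (unequal variance, linear signals, their fold and difference limits), a replicate block, each array left out, 1 fit on all 37 U74Av2 arrays, hours left out or each time alone, scan day as a block, the deposited scaling and the other Plk1 probe set. A block for the 8 Cre Mlo and Cre Mhi arrays was added after the data were seen.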

Additional observations from a re-analysis of the deposited data

Results flagged for a closer look

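Of 45 combinations of gene and group with 4 to 6 arrays, 7 held an array far from the others. The gap to its nearest neighbour as a share of the group's range is given. Chance would give about 1 in 20 among separate combinations. The genes share arrays and move together within them, so the 7 cannot be weighed against that rate. Cdk1 on Ctrl Mhi replicate 2 was 5463 units against 2263 to 2581 on the others (0.851), and Kifc1 on the same array 963.5 against 196.6 to 228.7 (0.905). Kifc1 on Cre Mhi replicate 4 was 1019 against 200.7 to 248.3 (0.869). On FxE HA replicate 5 Rrm2 was high at 364.6 against 156.9 to 191.1 (0.766) and Kifc1 low at 62.2 against 163.4 to 213.6 (0.783). Aspm on FxE Ctrl replicate 3 was 42.6 against 13.9 to 22.1 (0.868). Pole2 on Cre Mlo replicate 4 was 35.9 against 10.4 to 16.2, and its share of 1.0 is fixed by the floor of 20, to which the others were raised. Ctrl Mhi replicate 2 and Cre Mhi replicate 4 were also the 2 arrays on which all 9 genes were above their means over the interferon cultures.

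The effect of FxD against FxE differed from that of Cre Mlo against Ctrl Mhi for every one of the 9 genes, tested as a difference of differences on the log2 scale by limma. It was 5.19 for Top2a, 4.85 for Rrm2, 3.96 for Cdk1, 2.80 for Plk1 and 2.56 for Aurkb. It was 5.61 for Aspm, 5.09 for Kifc1, 5.93 for Cdkn3 and 4.34 for Pole2.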

How the results depend on the processing

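No log2 difference of any of the 9 genes that was called changed its sign under any alternative run. Of 1742 values of single genes under alternatives, 1570 kept their side of the threshold, 131 lost a call and 41 gained one. Most of these values belong to results that were not called and had no call to lose. For FxD vs FxE the call was lost in 4 alternatives for Kifc1 and up to 9 of 11 for Pole2. For BM 48h Ctrl vs HEL Mhi it was lost in 1 for each called gene. To see whether replicate numbers pair arrays, deviations from group means were correlated. Over all probe sets no comparison had every same-numbered pair above 0.1 (Cre Mlo with Cre Mhi 0.0112 to 0.166, 3 of 4 best with their own number). Where the mean signal was 500 units or more, a check added after the data were seen, Cre Mlo with Cre Mhi gave 0.177 to 0.474 (4 of 4) and HEL 48h with BM 48h Ctrl 0.111 to 0.239 (3 of 3), a hint from the data. The labels tie no number to a shared culture, so the reported fits have no block. With a block for the replicate number, the count of the 9 genes called was 0 for FxD vs FxE, B6 Mneg vs Ctrl Mhi, GFPpos vs GFPneg, FxE HA vs FxE Ctrl, HEL 48h vs BM 48h Ctrl and BM 48h Ctrl vs HEL Mhi, and 1 for Cre Mlo vs B6 Mneg. In the fit of Cre Mlo and Cre Mhi alone it was 1 (Aspm, adjusted p = 0.0442), with Plk1 at 0.0586.

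Counts of the 9 genes called moved as follows. The methods' t-test after Benjamini-Hochberg called 0 in every comparison, and at its own limits 0 for FxE HA vs FxE Ctrl and HEL 48h vs BM 48h Ctrl and 3 for BM 48h Ctrl vs HEL Mhi. A floor of 100 gave 5 for FxD vs FxE, 1 for the difference of GFPpos vs GFPneg and Cre Mlo vs Ctrl Mhi, and 2 for that of FxE HA vs FxE Ctrl and GFPpos vs GFPneg. A mean signal of at least 200 gave 6 for B6 Mneg vs Ctrl Mhi, 3 for GFPpos vs GFPneg and 1 for the last difference. That difference gave 2 after quantile normalization. One fit on the 37 U74Av2 arrays gave 1 for Cre Mlo vs Ctrl Mhi (Plk1, adjusted p = 0.0493), 8 for GFPpos vs GFPneg and 3 for the last difference. FxE HA vs FxE Ctrl had 2 at 24 h alone and 0 at 48 h alone, and HEL 48h vs BM 48h Ctrl 0 with scan day as a block. With 1 array left out in turn the count ran from 0 to 5 for FxD vs FxE, 0 to 8 for B6 Mneg vs Ctrl Mhi, 2 to 9 for Cre Mlo vs B6 Mneg, 0 to 1 for GFPpos vs GFPneg, FxE HA vs FxE Ctrl and the last difference, 0 for HEL 48h vs BM 48h Ctrl, and 7 to 8 for BM 48h Ctrl vs HEL Mhi. The causes were not tested. A chip lot block was not run, since all arrays of the antigen comparison share a lot. Signals near 20 units, as for Pole2 and Aspm, carry little precision.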
